A study of Homo sapiens with 35 samples.

Results

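The genes described here are the Eph receptors, the ephrins, the semaphorins, the plexins and the neuropilins of H9 cells, a line of human embryonic stem cells. Within these families, members were matched by gene symbol, without use of their values, and 53 of the 58581 genes in the count table matched: 14 Eph receptors, 8 ephrins, 20 semaphorins, 9 plexins and 2 neuropilins. All 53 passed the low-count filters of both models used below. The cells had been maintained in E8 medium and were sampled at seeding as single cells (t0) and then in 3 media. E8 was the pluripotency control, E6 was the control for spontaneous differentiation, and BA was E6 carrying 40 ng/mL of BMP4 and Activin A, used for mesendoderm induction. Each medium was sampled every 6 h from 6 to 48 h, with 1 library per time except that t0, BA at 24 h and all 3 media at 48 h had 3 replicates. This gives 35 libraries of poly(A) RNA from 1 cell line. Whether replicates came from separate cultures is not stated, so p-values measure the spread between these libraries, which may be technical.

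Ephrins are membrane-bound ligands of the Eph receptor tyrosine kinases. A-type ephrins are held by a lipid anchor and B-type ephrins span the membrane, and binding at a cell contact signals into both cells. Semaphorins signal through plexins: the class 3 semaphorins are secreted and mostly need a neuropilin as co-receptor, with SEMA3E binding PLXND1 directly as the known exception, while classes 4 to 7 are tethered to the membrane. These families are best known from axon guidance and vessel patterning, and Eph signalling also sorts cells at tissue boundaries in the gastrulating embryo.

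Libraries held 11793453 to 37191969 counts, and values are given as CPM, counts scaled to a common library total with TMM factors, a normalization that assumes most genes are stable. The first principal component (61.5% of the variance over the 1000 genes that varied most) separated replicate 1 together with the single libraries (25 libraries, called the replicate 1 series) from replicates 2 and 3 (10 libraries). The correlation across genes was r = 0.993 to 0.995 between replicates 2 and 3 of a group and 0.896 to 0.935 between replicate 1 and either of them. Values from replicate 1 and from replicates 2 and 3 are therefore given apart. The E6 library at 18 h and the E8 library at 24 h lay nearer to replicates 2 and 3 on that component than the rest of their series. CDH1, the epithelial cadherin, was at 18.2 CPM in E8 at 18 h, 24.2 in E8 at 36 h and 22.1 in BA at 42 h. Over all libraries of a medium, primitive streak markers summed to 21 to 2690 CPM in BA and to 1.1 to 1.23 at t0, with all 4 genes under 1 CPM in every t0 library. In BA at 48 h all 4 were higher in replicate 1 than in replicates 2 and 3. EOMES was at 992 CPM against 45.3 and 46.6, and MIXL1 at 683 against 34.2 and 39.2. T was at 88.8 CPM against 28.7 and 24.4, and MESP1 at 42.1 against 4.87 and 3.65. The part of these markers in the results below, and in the gap between the 2 sets of libraries, was not tested, nor was the part of amnion and trophoblast markers, which summed to 62.9 to 305 CPM in BA and to 1.15 to 21.4 in E6, of definitive endoderm markers (12 to 4530 in BA, 7.68 to 14.2 in E6) and of neuroectoderm markers (0.891 to 5.64 in BA, 6.54 to 47 in E6). Not every gene followed its sum. The highest definitive endoderm sum was mostly CER1 (4440 CPM in BA at 42 h). FOXA2 of that list was at 0.0517 to 0.257 CPM in BA up to 30 h against 3.44 to 10.2 in E6, but at 8.69 against 3.85 at 48 h in replicate 1. KRT7 of the amnion and trophoblast list was lower in BA at 48 h, at 0.192, 4.18 and 2.54 CPM against 3.74, 21.2 and 20.6 in E6. TFAP2A of the same list was lower in BA replicate 1 at 48 h than in replicates 2 and 3, at 26.4 CPM against 54.3 and 51.5. The pluripotency gene SOX2 was at 3.51 CPM in BA replicate 1 at 48 h and at 162 and 131 in replicates 2 and 3. In bulk RNA, fewer cells of a type and less RNA per cell cannot be told apart.

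The promoters of 3 members with the smallest p-values for BA against E6 and of EFNB2, a ligand higher in BA than in E6 at all 8 hours, are shown because these members mark the 3 time patterns described below: highest at 6 h (EFNB2), late rise (PLXNA2 and SEMA3E) and progressive decline (SEMA4D). They were chosen after their values were seen. Each is the 250 bases before the gene's first listed start in RefSeq (GRCh38.p14), printed 5′ to 3′ on the gene's own strand, which is the minus strand for all 4: chr1:208244385-208244634, chr7:83649140-83649389, chr9:89495657-89495906 and chr13:106535663-106535912. No GENCODE exon overlaps any of the 4 windows, though the SEMA4D window lies within the span of the longer GENCODE gene model. Capitals mark matches to 5 motifs searched on both strands.
PLXNA2: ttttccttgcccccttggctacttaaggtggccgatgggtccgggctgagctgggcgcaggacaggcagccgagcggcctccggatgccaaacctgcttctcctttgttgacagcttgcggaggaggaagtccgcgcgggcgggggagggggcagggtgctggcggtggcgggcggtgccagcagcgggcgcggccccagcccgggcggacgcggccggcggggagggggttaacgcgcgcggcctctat
SEMA3E: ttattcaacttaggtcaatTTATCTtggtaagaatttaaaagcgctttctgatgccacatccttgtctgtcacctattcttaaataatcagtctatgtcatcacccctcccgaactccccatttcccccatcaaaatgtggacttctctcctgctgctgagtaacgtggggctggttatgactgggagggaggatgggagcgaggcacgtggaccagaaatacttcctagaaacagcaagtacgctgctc
SEMA4D: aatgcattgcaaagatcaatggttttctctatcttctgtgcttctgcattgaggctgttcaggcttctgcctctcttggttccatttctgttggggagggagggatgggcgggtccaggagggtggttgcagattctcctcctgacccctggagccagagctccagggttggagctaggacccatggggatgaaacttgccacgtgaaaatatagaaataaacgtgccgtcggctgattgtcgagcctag
EFNB2: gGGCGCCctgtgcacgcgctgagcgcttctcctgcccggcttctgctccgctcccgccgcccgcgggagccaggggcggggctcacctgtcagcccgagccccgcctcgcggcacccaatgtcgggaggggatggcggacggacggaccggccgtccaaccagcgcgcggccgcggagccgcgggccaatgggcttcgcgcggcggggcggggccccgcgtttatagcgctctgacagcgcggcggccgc

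The element of SMAD proteins was searched as GGCGCC, that of brachyury-type factors as AGGTGT, the TCF and LEF core as CTTTGA, the element of GATA factors as AGATAA and that of FOXH1 as TGTGNATT. No match overlaps another in the printed windows. The EFNB2 window holds 1 match to GGCGCC, the SEMA3E window holds 1 match to AGATAA on the opposite strand, and the PLXNA2 and SEMA4D windows hold none of the 5. A promoter was listed for 47 of the 53 members. GGCGCC was in 12 of the 47 (25.5%), against 16.1% of all 27305 promoters, beside a median GC content of 66.4% in members and 58% in all promoters. The other motifs were in 1 (AGGTGT, 2.13% against 9.66%), 3 (CTTTGA, 6.38% against 11.4%), 4 (AGATAA, 8.51% against 9.37%) and 0 (TGTGNATT, against 2.83%) of the 47. A match is a description of letters and says nothing about binding.

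Most members were transcribed in these cells before any treatment. Of the 53, 41 were at 1 CPM or more in every library, none was under 1 CPM in all of them, 10 had a median of 100 CPM or more and 22 a median under 10 CPM. Per kilobase of exon, which allows genes to be compared, the highest mean over all libraries in each family was that of SEMA6A at 59 CPM per kb, EPHA1 at 46.8, PLXNB1 at 32.3, EFNB1 at 21.8 and NRP2 at 13.1. At t0 the order of the leading members was EPHA1 (55.8 CPM per kb), SEMA6A (50.6), EPHB4 (36.1), PLXNB1 (33.5) and PLXNA1 (26.6). At the low end, EPHA5 averaged 0.0509 CPM per kb, EPHA10 0.116 and EPHA6 0.144, levels that rest on few reads.

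**Figure D1:**
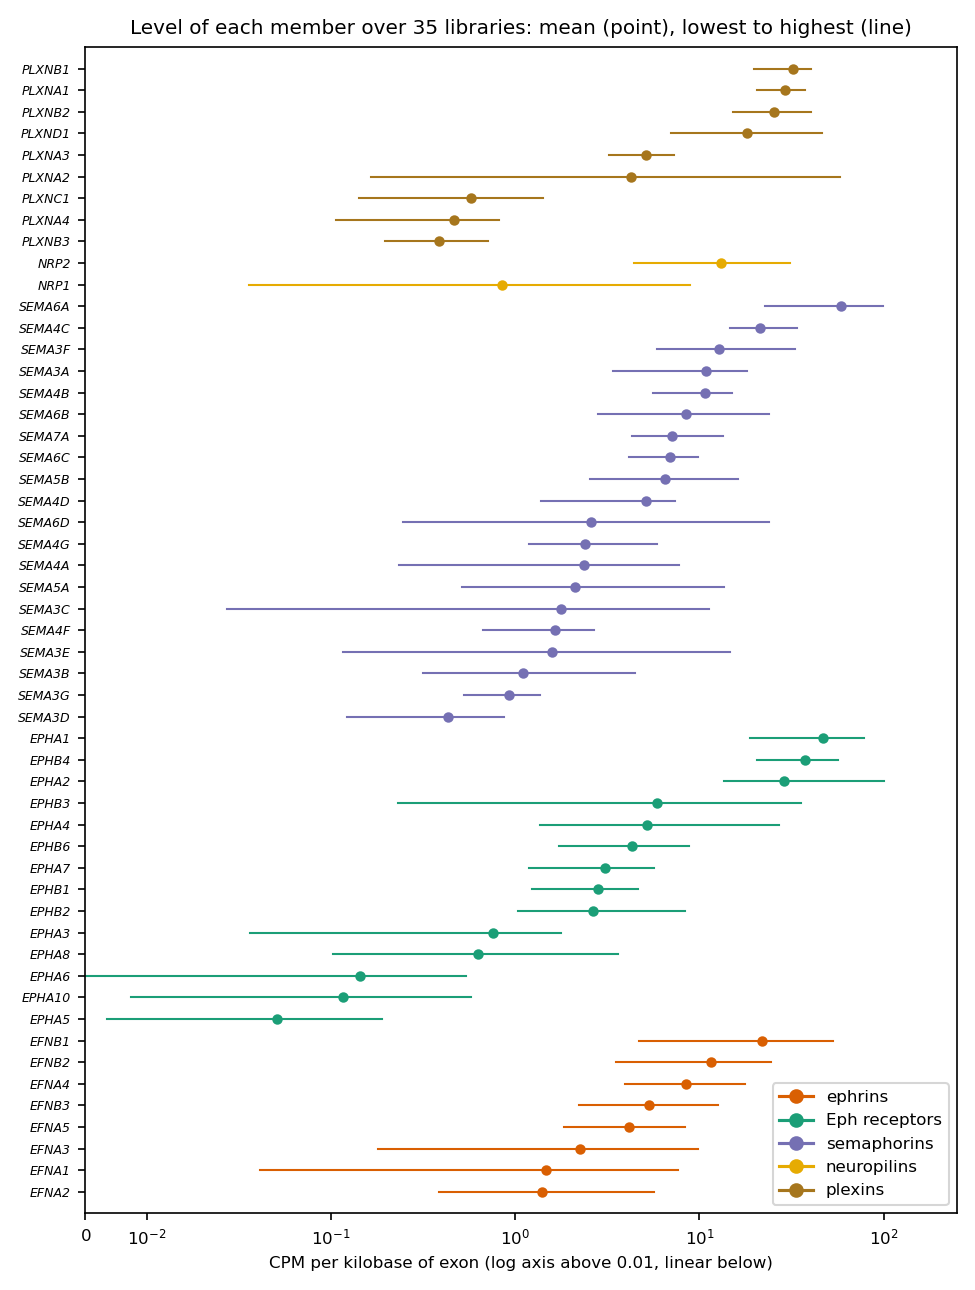
Level of each member in CPM per kilobase of exon over 35 libraries, grouped by family; points are means and lines run from the lowest to the highest library. SEMA6A (59), EPHA1 (46.8) and EPHB4 (37.4) have the highest means, and the lines of SEMA3C, PLXNA2, NRP1 and EPHB3 are among the longest.

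The central question was how BMP4 and Activin A changed these families relative to the same medium without them. The replicate 1 series, with 1 library for each medium and hour (24 libraries), was fitted with a smooth curve of time in each medium, and the edgeR quasi-likelihood test asked whether the BA curve differed from the E6 curve in level or shape. At a Benjamini-Hochberg adjusted p below 0.05, 41 of the 53 members differed, 22 with a higher and 19 with a lower mean in BA, where 30.5% of all 18244 tested genes did (15.8% higher and 14.6% lower). The median log2 difference over the 53 was 0.06, against -0.01 over all genes. By family, 11 of 14 Eph receptors were called (5 higher, 6 lower), and 17 of 20 semaphorins (9 higher, 8 lower). Of the 41 calls, 28 held whichever single library was left out. The other 13 were lost without 1 to 19 of the 24 libraries, 1 at a time: EFNA3 (19) and EFNB3 (15), which sit just inside the threshold, EPHA10 (9), SEMA4G (6), SEMA3F (4), SEMA6B, SEMA3D, EPHB1 and PLXNB1 (3 each), SEMA4F and EPHA8 (2 each), EPHB2 (without BA at 18 h) and PLXNC1 (without BA at 48 h). With replicates 2 and 3 added and the replicate number as a block, 34 members were called (19 higher, 15 lower) against 31.8% of genes. With them added and no block, 17 members were called, and calls over all genes fell likewise, from 5561 to 2852. The block ended the calls of EPHA4, EPHB1, EPHB2, PLXNC1, SEMA3A, SEMA3D, SEMA4G and SEMA6A (adjusted p = 0.225, 0.23, 0.5, 0.308, 0.0533, 0.0791, 0.065 and 0.0785) and added PLXNB2 (0.0464).

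**Figure D2:**
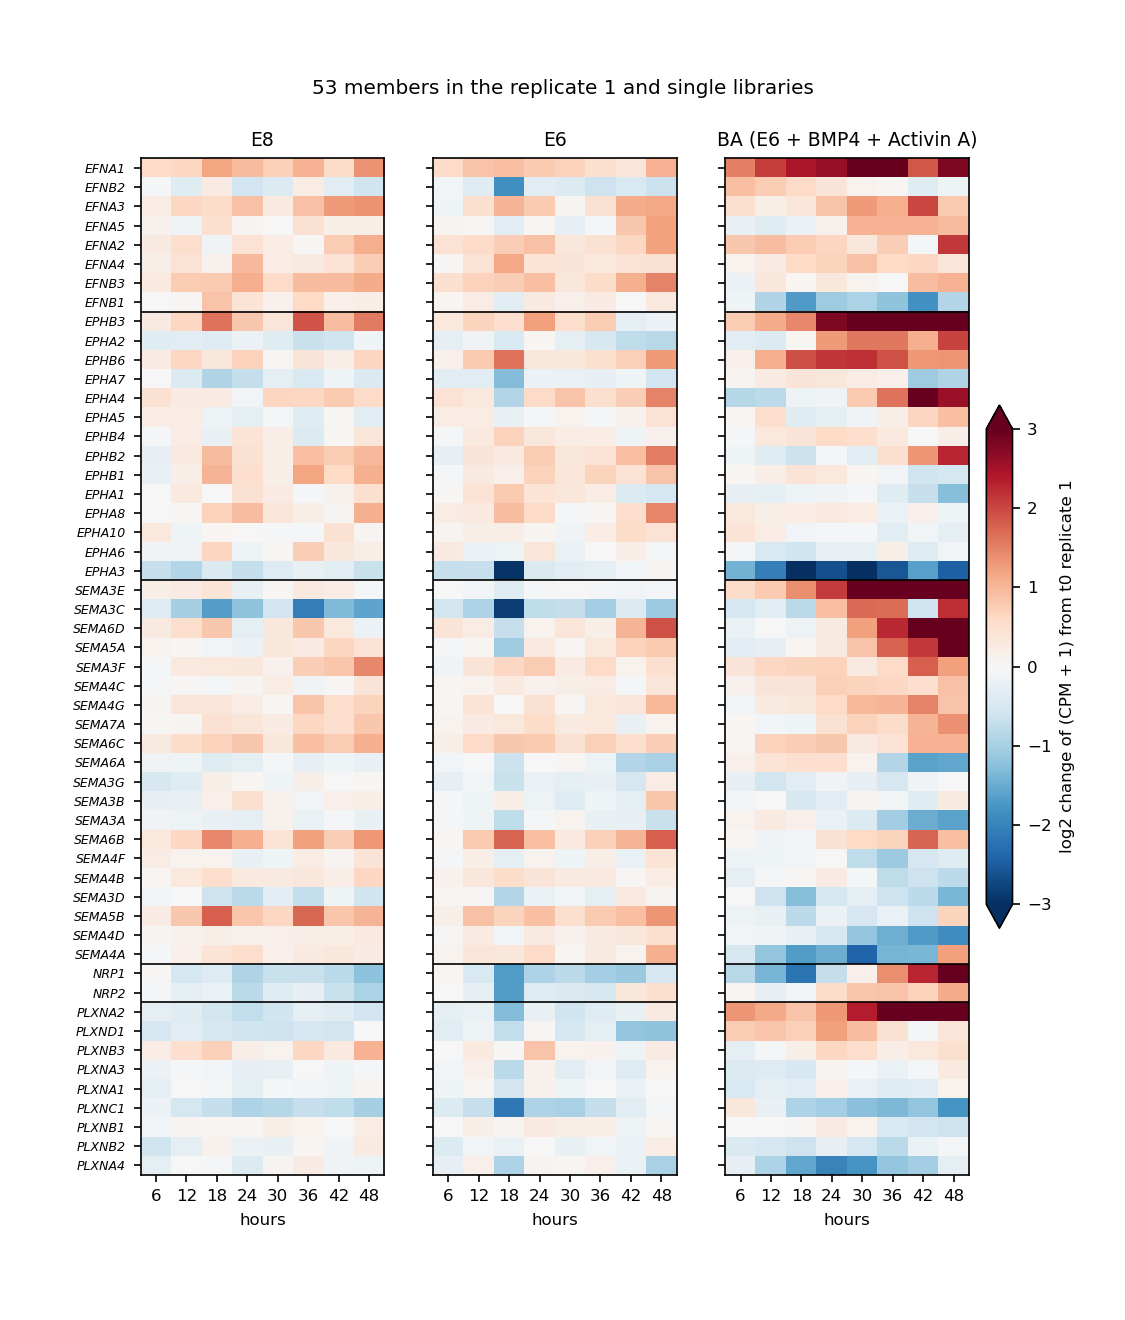
Change of each member from t0 replicate 1 on the log2(CPM + 1) scale (colour, limited to between -3 and 3) in the replicate 1 and single libraries, by hour (columns) and medium (panels); rows are ordered within family by the BA minus E6 difference. In BA after 24 h, SEMA3E, PLXNA2, EPHB3, EFNA1, SEMA6D, NRP1, SEMA5A and EPHA4 reach the red limit, EPHA3 is blue throughout, and the E6 column at 18 h stands out from its neighbours.

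Among the ephrins, EFNA1 and EFNB2 were higher in BA at all 8 hours and EFNB1 lower at all 8. EFNA1, an A-type ligand first found as a TNF-inducible gene of endothelium, was at 0.105 CPM in t0 replicate 1 and at 2.16, 3.67, 5.08, 5.74, 7.97, 8.84, 3.03 and 6.71 CPM in BA at 6 to 48 h, while E6 ranged from 0.417 to 1.27. The fitted BA minus E6 difference, averaged over the 8 hours, was 2.66 ± 0.23 on the log2 scale (SE; adjusted p = 1.18e-06). The level was low but the gap was also there in replicates 2 and 3 at 48 h, with 19.4 and 17.6 CPM in BA and 4.41 and 4.12 in E6. EFNB2, the B-type ligand that marks arteries, was at 123, 112, 98, 86.1, 70.5, 67.7, 50.8 and 60.2 CPM in BA, against 65.5 in t0 replicate 1 and 17.7 to 61.9 in E6. It thus stood highest at the first time point and approached the E6 level by 42 h (difference 0.86 ± 0.18, adjusted p = 0.00687). Replicates 2 and 3 at 48 h gave 62.6 and 68.2 CPM in BA and 25 and 26.1 in E6.

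EFNB1, the X-linked B-type ligand and the most abundant ephrin per kilobase, was at 87.7, 51.3, 29.3, 45.6, 49.7, 41.3, 26.9 and 52.1 CPM in BA, below every E6 library of the series (75.5 to 118) except at 6 h, where BA lay within that range. The difference was -1.16 ± 0.16 (adjusted p = 0.00032), and at 48 h replicates 2 and 3 were at 22.3 and 19.5 CPM in BA and 34.4 and 36 in E6. EFNB3 was also lower (-0.46 ± 0.11, adjusted p = 0.0438), and EFNA3 (0.51 ± 0.27, 0.0467) and EFNA5 (0.26 ± 0.11, 0.00484) had a higher mean over the 8 hours. At 48 h, however, both were lower in BA in every replicate. EFNA3 was at 1.53, 14.1 and 13.3 CPM against 2.31, 18.6 and 18.7 in E6. EFNA5 was at 40, 25.7 and 24.9 CPM against 47.9, 26.5 and 27.4. EFNA2 (adjusted p = 0.649) and EFNA4 (0.455) did not pass the test.

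Of the Eph receptors, EPHB3 and EPHA2 had the largest rises over E6 and EPHA3 the largest deficit. EPHB3, a B-type receptor known from sorting of intestinal crypt cells, was at 11.9, 15.5, 19.5, 51.6, 98.3, 131, 139 and 162 CPM in BA and at 5.25 to 16.8 in E6 (difference 2.48 ± 0.22, adjusted p = 5.62e-07). In replicates 2 and 3 the 48 h values were 18 and 14.5 CPM in BA and 10.7 and 9.96 in E6, a far smaller gap in the same direction. EPHA2, a receptor for EFNA1 that is common in epithelia, was at 81.3, 77, 106, 249, 308, 308, 220 and 416 CPM in BA and at 56.4 to 107 in E6 (1.31 ± 0.14, adjusted p = 2.17e-06). The BA values left the E6 range at 24 h and stayed above it. Replicates 2 and 3 stood at 80.2 and 87.5 CPM at 24 h, near their t0 values of 82 and 87.2, and at 169 and 163 at 48 h.

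EPHA3, whose preferred ligand is EFNA5, was at 11 CPM in t0 replicate 1, at 0.242 to 3.48 in BA and at 6.38 to 11.7 in E6 apart from 0.569 at 18 h (difference -2.44 ± 0.36, adjusted p = 0.000585). In replicates 2 and 3 it was at only 0.443 and 0.449 CPM at t0. At 48 h these replicates had 3.34 and 3.46 CPM in BA and 8 and 7.38 in E6. They thus shared the deficit against E6 but rose from t0. EPHA1, the most abundant Eph receptor, was lower in BA at all 8 hours, from 180 against 221 CPM at 6 h to 88.8 against 148 at 48 h (-0.54 ± 0.07, adjusted p = 0.000224). EPHB6, which lacks kinase activity, was higher (0.82 ± 0.13, adjusted p = 9.85e-05), with 44.3 against 12 CPM at 24 h. At 48 h replicate 1 had 24.4 in BA against 23.8 in E6. Replicates 2 and 3 at 48 h were still higher in BA, at 46.8 and 41.4 CPM against 34.9 and 36.6. EPHA4 crossed over: BA was below E6 up to 30 h except at 18 h (12.3 against 31.3 CPM at 6 h) and above it from 36 h (203 against 38.7 at 42 h), giving a small mean difference of 0.26 ± 0.20 with an adjusted p of 0.00796 for the curves. At 48 h EPHA4 was at 144 CPM in BA replicate 1 but at 10.3 and 11.5 in replicates 2 and 3, where E6 had 65.9, 80 and 93.9, so the 2 sets of libraries disagree in direction for this gene. EPHB4, the receptor of EFNB2, did not pass (0.09 ± 0.10, adjusted p = 0.81).

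**Figure D3:**
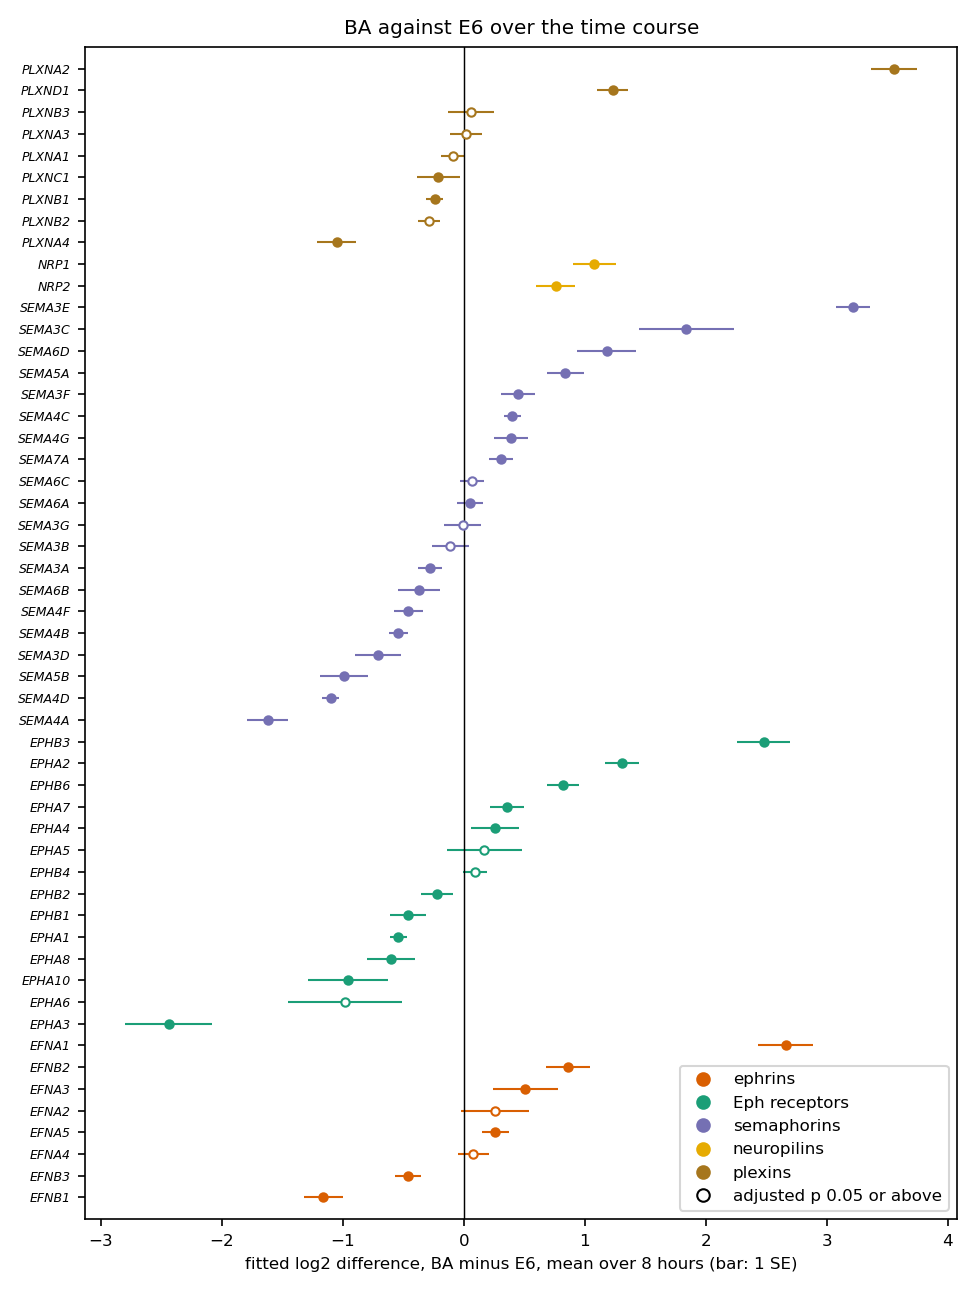
Fitted log2 difference of BA minus E6, averaged over 8 hours, for each member (bars are 1 SE; filled points have an adjusted p below 0.05). PLXNA2 (3.56), SEMA3E (3.22) and EFNA1 (2.66) lie farthest to the right and EPHA3 (-2.44) farthest to the left, and every family but the neuropilins has members on both sides of 0.

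The secreted class 3 semaphorins moved in different directions. SEMA3E, the ligand of PLXND1 known for repelling growing vessels, was at 4.95, 5.92, 9.55, 16.2, 57.6, 124, 77.9 and 83.7 CPM in BA, while E6 stayed between 2.15 and 3.04. BA was above every E6 library at all 8 hours, with a difference of 3.22 ± 0.14 (adjusted p = 1.64e-10), the smallest p of the 53. Replicates 2 and 3 repeated the order at lower levels: 1.3 and 1.98 CPM at t0, 4.05 and 3.76 at 24 h and 8.84 and 9.91 at 48 h in BA, against 1.2 and 0.978 in E6 at 48 h. SEMA3C, which signals through both neuropilins and is required in the cardiac outflow tract, was at 27.9 to 70.7 CPM in BA from 24 h on apart from 9.17 at 42 h, and at 1.14 to 10.6 in E6 (1.84 ± 0.39, adjusted p = 0.00915). SEMA3F was higher by 0.45 ± 0.14 (adjusted p = 0.0335), a call lost without BA at 12 h or E6 at 6, 42 or 48 h (adjusted p up to 0.18).

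SEMA3A, the prototype collapsing factor of growth cones and a ligand of NRP1 with PLXNA1, was at 152, 170, 157, 124, 106, 68.1, 50.1 and 45.9 CPM in BA and at 139, 129, 83, 137, 154, 121, 119 and 88.4 in E6. It was above E6 at the first 3 hours and below it from 24 h (mean difference -0.28 ± 0.10, adjusted p = 0.000277). In replicates 2 and 3 at 48 h it was instead higher in BA (64.4 and 72 CPM) than in E6 (34.2 and 31.8), and with those libraries and the replicate block the adjusted p was 0.0533. SEMA3D was lower (-0.71 ± 0.19, adjusted p = 0.0221, lost with the block at 0.0791 and without BA at 48 h or E6 at 42 or 48 h), and SEMA3B (0.379) and SEMA3G (0.973) did not pass.

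Neuropilins and plexins, the receptors of these ligands, included the steepest late rises. NRP1, also a co-receptor of VEGF, was at 5.22, 3.2 and 1.45 CPM in BA at 6, 12 and 18 h, each below E6 (10.6, 7.15 and 2.46), and then at 5.79, 11.3, 28.3, 52.9 and 102 CPM, when E6 was at 4.17 to 6.88. The fitted mean difference was 1.08 ± 0.18 (adjusted p = 1.03e-06). In replicates 2 and 3 BA was at 0.471 and 0.414 CPM at 24 h and at 3.76 and 4.57 at 48 h, so the higher 48 h values were near the t0 values of 2.66 and 3.41. NRP2 was higher by 0.76 ± 0.16 (adjusted p = 0.00674), with 430 against 280 CPM at 48 h in replicate 1 but 87 and 105 against 220 and 234 in replicates 2 and 3, the opposite direction.

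PLXNA2, a receptor of class 3 and class 6 semaphorins, was at 23.3, 20.3, 16.5, 22.8, 48.5, 214, 731 and 800 CPM in BA and at 2.91 to 10.6 in E6. Its difference of 3.56 ± 0.19 (adjusted p = 2.58e-09) was the largest of the 53, and its ratio to E6, after adding 1 CPM, was 3.07 at 6 h and 88.7 at 42 h. In replicates 2 and 3 PLXNA2 was at 18.8 and 18.8 CPM in BA at 48 h and at 2.28 and 2.25 in E6, again without overlap but at a level the replicate 1 series had reached by 6 h. PLXND1 was at 321, 338, 312, 449, 364, 262, 185 and 246 CPM in BA, above E6 (81.9 to 195) at each matched hour (1.23 ± 0.13, adjusted p = 1.81e-05). At 48 h replicates 2 and 3 gave nearly the same ratio, with 228 and 220 CPM against 68.2 and 72.

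PLXNA4 was lower in BA (-1.05 ± 0.16, adjusted p = 5.53e-05), with 2.02 against 11.8 CPM at 24 h, though at 48 h replicate 1 had 9 in BA and 5.17 in E6. PLXNB1, the SEMA4D receptor, was below E6 at all 8 hours by a small amount (-0.24 ± 0.07, adjusted p = 0.0215), a call lost without E6 at 36 h, E6 at 48 h or BA at 42 h (adjusted p up to 0.216). PLXNC1, the SEMA7A receptor, had different curves (adjusted p = 0.00517, and 0.0546 without BA at 48 h): it was at 12.4 against 6.92 CPM at 6 h and at 2.11 against 9.25 at 48 h, while replicates 2 and 3 at 48 h had 13.3 and 14 against 6.08 and 6.35. PLXNA1, PLXNA3, PLXNB2 and PLXNB3 did not pass, with differences of -0.09 to 0.06 for all but PLXNB2 (-0.29).

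The membrane-bound semaphorins held the clearest declines. SEMA4D, which signals through B-type plexins, was at 69.7, 68.9, 63.5, 52.5, 32.3, 25.9, 22 and 19.6 CPM in BA and at 70 to 104 in E6, below E6 at all 8 hours (-1.10 ± 0.07, adjusted p = 1.38e-09). Replicates 2 and 3 showed a smaller gap at 48 h, at 74 and 69.9 against 93.9 and 89.9 CPM, and were close to their own t0 values of 70.2 and 72. SEMA4A was lower in BA at 7 of 8 hours, at 8.69, 4.98, 3.26, 3.83, 1.59, 4.18 and 4.25 CPM from 6 to 42 h against 12.9 to 19.1 in E6, and then at 31.1 against 27.6 at 48 h (-1.62 ± 0.17, adjusted p = 4.47e-06). In replicates 2 and 3 it was at 17.2 and 17.2 CPM at t0, 6.84 and 6.62 at 24 h, and 20.5 and 20.1 at 48 h in BA, the same dip and return, against 52.6 and 52.9 in E6.

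SEMA4B (-0.54 ± 0.08), SEMA4F (-0.46 ± 0.12), SEMA5B (-0.99 ± 0.20) and SEMA6B (-0.37 ± 0.17) were also lower, with adjusted p from 0.000179 to 0.0239. In replicates 2 and 3 at 48 h SEMA4F (10.5 and 8.61 CPM in BA against 14.7 and 13.9 in E6) and SEMA5B (33.7 and 30.1 against 69.7 and 74.3) were lower too. SEMA4B (74.9 and 64.5 against 71.5 and 70.7) and SEMA6B (105 and 74.6 against 92 and 95.2) showed no clear gap there. The call of SEMA4F was lost without BA or E6 at 36 h (adjusted p up to 0.0957), and that of SEMA6B without BA at 12 or 18 h or E6 at 18 h (up to 0.142). SEMA4C (0.40 ± 0.07), SEMA4G (0.39 ± 0.14), SEMA5A (0.84 ± 0.15), SEMA6D (1.18 ± 0.24) and SEMA7A (0.31 ± 0.10) had a higher mean, with adjusted p from 0.000109 to 0.0341. SEMA4C showed no clear gap in replicates 2 and 3 at 48 h, at 122 and 105 CPM in BA against 114 and 117 in E6. SEMA7A was above E6 at 4 of 8 hours, and at 48 h replicates 2 and 3 had 36.2 and 36.6 CPM against 35.1 and 33. SEMA4G was lost without any of 6 single libraries (adjusted p up to 0.13), and 22.3% of its exon bases are shared with MRPL43 on the opposite strand, so its counts are uncertain where strand was not used. At 48 h SEMA4G was lower in BA in every replicate, at 12.8, 26 and 22.8 CPM against 14.2, 30.9 and 29.5 in E6. SEMA6D, a class 6 semaphorin with a role in heart development, was at 6.22 to 9.05 CPM in BA up to 24 h and then at 18.3, 38.4, 203 and 159. In replicates 2 and 3 at 48 h the direction was opposite, with SEMA6D at 16.6 and 19.1 CPM in BA and 41.8 and 42.4 in E6, and SEMA5A at 20.8 and 20.2 against 24.8 and 24.2. SEMA6A, the most abundant semaphorin, was at 853, 1020, 1080, 1080, 819, 412, 249 and 257 CPM in BA and at 719, 765, 490, 759, 800, 688, 417 and 387 in E6, so that BA went from above E6 to below it with a mean difference of 0.05 ± 0.11 (adjusted p for the curves 0.00506). Replicates 2 and 3 did not follow: at 48 h they were at 793 and 836 CPM in BA and at 316 and 311 in E6.

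**Figure D4:**
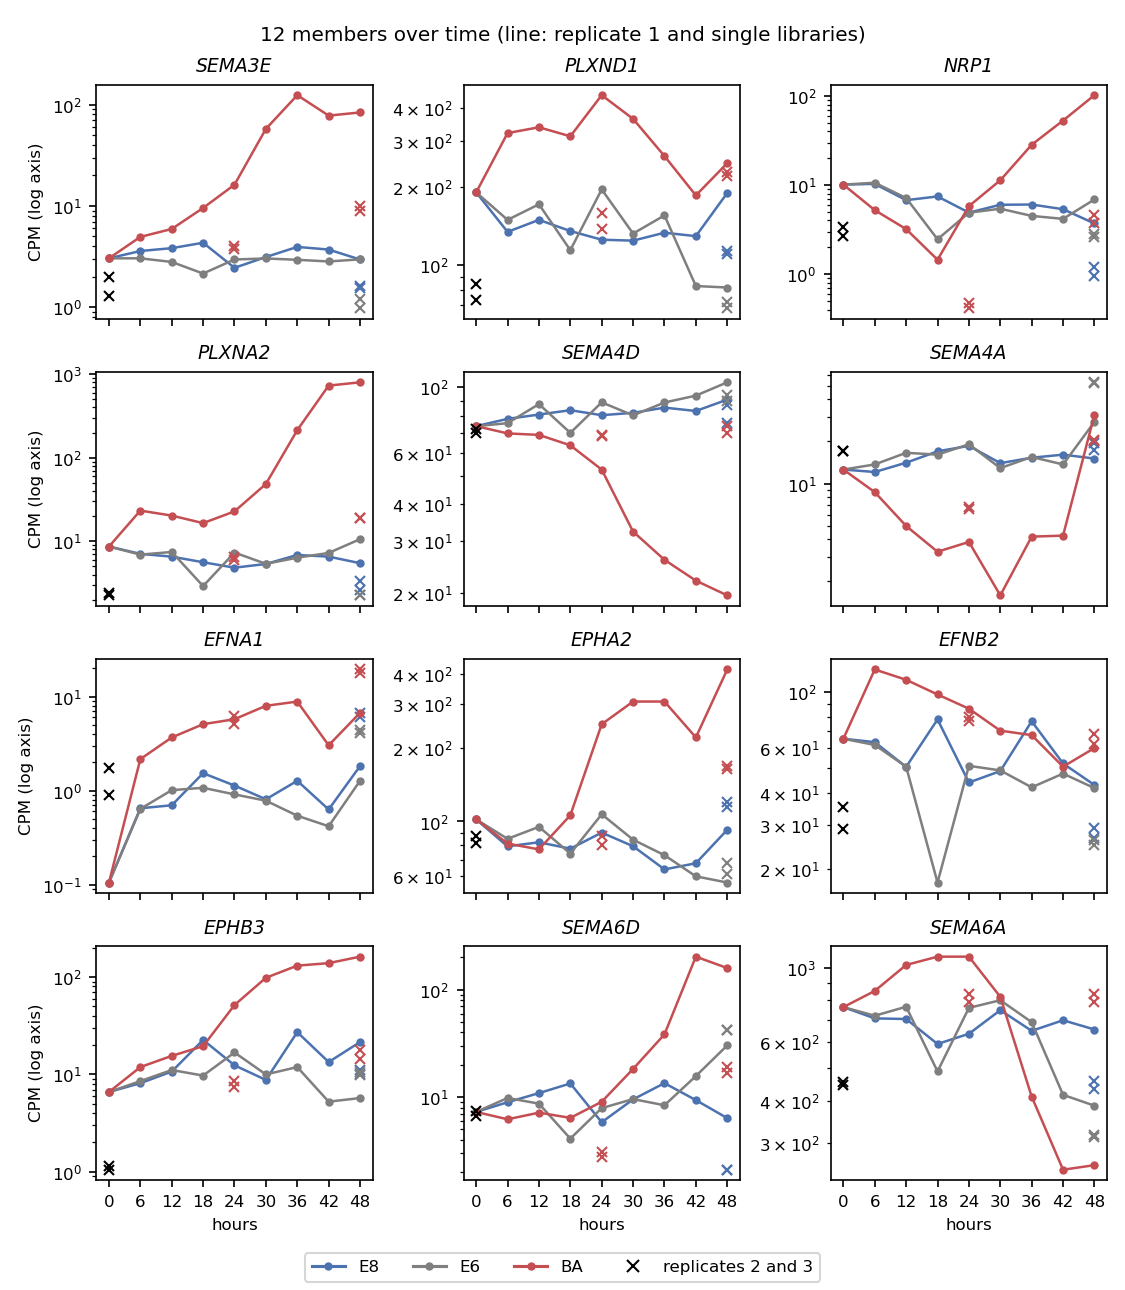
CPM (log axis) of 12 members against hours in E8 (blue), E6 (grey) and BA (red); lines join t0 replicate 1 and the 8 later libraries of that series, and crosses are replicates 2 and 3 at t0, 24 and 48 h (black at t0). SEMA3E, PLXNA2, NRP1, EPHB3 and SEMA6D climb in BA after 24 h to 48 h values of 83.7, 800, 102, 162 and 159 in the line, and the red crosses at 48 h lie far below these ends.

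Within BA alone, the test of change from 6 to 48 h called 32 of the 53 members, 22 with a higher and 10 with a lower fitted level at 48 h than at 6 h, where 22.2% of all genes were called (11.8% higher, 10.4% lower). Of these, 20 held whichever single library was left out. With all 32 libraries and the replicate block, 33 members were called (23 higher, 10 lower), where 4121 of 20260 genes were called. That fit ended the calls of SEMA6C, SEMA4C, EPHA5, EFNA2 and PLXNA4. It added SEMA3B, SEMA3C, EPHA6 and PLXNB2 as higher and EPHA3 and EPHA10 as lower. The 10 members with the smallest adjusted p were PLXNA2 (log2 change 5.33, adjusted p = 8.46e-09), SEMA3E (3.92, 8.46e-09), NRP1 (4.27, 3.73e-08), SEMA4D (-1.77, 7.04e-08), SEMA5A (3.56, 5.84e-07), SEMA6D (5.09, 1.09e-06), EPHB2 (2.55, 1.74e-06), SEMA4A (1.77, 5.1e-06), EPHA4 (3.95, 8.89e-06) and SEMA6A (-1.80, 9.43e-06). The median change over the 53 was 0.705, against 0.01 over all genes. SEMA5A was at 13.4 to 20.7 CPM up to 24 h and at 164 at 48 h, and EPHB2, a receptor of B-type ephrins, at 13 to 29.2 up to 36 h and at 105 at 48 h. EPHB2 in replicates 2 and 3 at 48 h was at 30.3 and 27.9 CPM, against 22.9 and 20.8 at 24 h, and below the 62.6 and 66.6 of E6. The change of SEMA4A rests on the last library: it was -0.28 without BA at 48 h, while the adjusted p stayed at or below 0.0124 in every fit that left out 1 library. EFNA1, EFNB2, EPHB4, PLXND1 and PLXNA1, whose differences from E6 are given above, did not pass this test of change within BA (adjusted p = 0.063, 0.137, 0.213, 0.166 and 0.441).

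Ligand and receptor sets differed in timing. At 6 h the ratio of BA to E6, after adding 1 CPM, was 1.96 for the ligand EFNB2 and 0.998 for its receptor EPHB4. It was 1.93 for the ligand EFNA1 and 0.957 for its receptor EPHA2, which left the E6 range at 24 h. It was 1.47 for the ligand SEMA3E and 2.15 for its receptor PLXND1, and the SEMA3E ratio reached 31.6 at 36 h. SEMA3A and NRP1 ran in opposite directions in BA (log2 changes -1.78 and 4.27) and PLXNA1 did not pass (adjusted p = 0.441). SEMA4D and PLXNB1 were both lower than E6 at all 8 hours, SEMA4D by the larger amount. SEMA7A rose in BA (1.40, adjusted p = 0.000277) and PLXNC1 fell (-2.39, adjusted p = 0.0012, and 0.0746 without BA at 6 h), but the PLXNC1 values of replicates 2 and 3 went the other way, as given above. Values at 6 h come from 1 library for each medium and have no test of their own.

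The replicated groups (15 libraries) gave few calls beside a wide spread between replicate 1 and replicates 2 and 3 within each group. BA at 48 h against E6 at 48 h called 2 of 53 members, where 3.52% of 21554 genes were called: SEMA3E (log2 change 4.39 ± 1, adjusted p = 0.0318) and EPHA2 (2.04 ± 0.47, adjusted p = 0.0332), both higher in 3 of 3 replicates. Neither call held without BA replicate 1 or without any of the 3 E6 libraries (adjusted p up to 0.17 and 0.155). With the replicate number as a block, 15 members were called against 22.1% of genes. The 8 higher (12.4% of all genes were higher) were SEMA3E, EPHA2, SEMA3C, PLXNA2, PLXND1, EFNA1, EFNB2 and NRP1, and the 7 lower (9.72% of all genes) were SEMA5B, SEMA4F, EFNB1, EPHA1, EPHA8, EPHA10 and PLXNB1. PLXND1 changed by 1.65 ± 0.28 in that fit (adjusted p = 0.00207) and EFNB2 by 1.11 ± 0.21 (0.00317). The sign of the change was opposite in replicate 1 and in the mean of replicates 2 and 3 for 19 of 53 members.

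**Figure D5:**
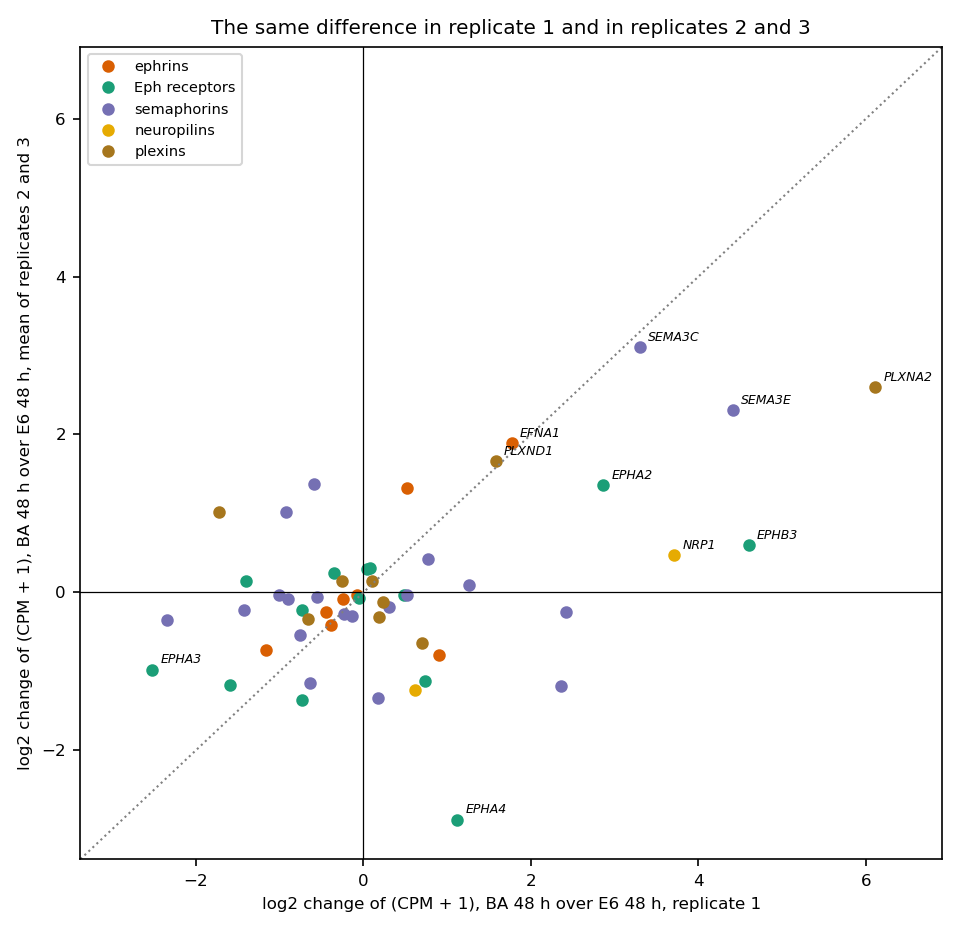
Log2 change of (CPM + 1) from E6 to BA at 48 h in replicate 1 (x axis) and as the mean of replicates 2 and 3 (y axis), 1 point for each member; the dotted line marks equal values. EFNA1, PLXND1 and SEMA3C lie near the line, PLXNA2 (6.11 and 2.60), SEMA3E (4.41 and 2.31), NRP1 (3.71 and 0.47) and EPHB3 below it, and 19 of 53 points lie in quadrants of opposite sign.

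BA at 24 h against t0 called 1 of 53 members, SEMA4A, where 1.57% of genes were called. SEMA4A was at 12.6, 17.2 and 17.2 CPM at t0 and at 3.83, 6.84 and 6.62 in BA, with no overlap (-1.40 ± 0.32, adjusted p = 0.0485), and leaving out any of the 6 libraries ended the call (adjusted p up to 0.198). The replicate block called 13 (11 higher, 2 lower) against 8.95% of genes (5.82% higher, 3.13% lower). They include EFNA3 (2.04 ± 0.28, adjusted p = 0.00117) and EFNA1 (2.99 ± 0.48, 0.00311) among the ligands, and EPHB6 (1.36 ± 0.26, 0.00779) among the receptors. BA at 48 h against BA at 24 h again called only SEMA4A (2.09 ± 0.32, adjusted p = 0.019), with 0.455% of genes called. Without BA 24 h replicate 2 or 3 the call was lost (adjusted p up to 0.0942). The block raised this to 19 members (16 higher, 3 lower) against 10% of genes (6.32% higher, 3.69% lower), and 10 of the 16 were semaphorins: SEMA3B, SEMA3C, SEMA3E, SEMA4A, SEMA4G, SEMA5A, SEMA5B, SEMA6B, SEMA6D and SEMA7A. EPHA1 (-0.81 ± 0.11), EPHA7 (-0.78 ± 0.18) and PLXNB1 (-0.65 ± 0.13) were the 3 lower.

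Few members were called between the 2 media without BMP4 and Activin A, in tests that called few genes of any kind. At 48 h, however, the 3 E6 and 3 E8 replicates did not overlap for 18 of 53 members (34%), against 9.4% of all tested genes. The time course of E6 against E8 called 0 of 53 members in edgeR, where 0.0603% of genes were called. DESeq2 called 1 member and 123 of all genes. In edgeR 7 members were at an unadjusted p below 0.05, a share that was not counted over all genes. With all 32 libraries and the replicate block, 3 were called against 1.01% of genes: EFNA5 and SEMA6D higher in E6 and EPHA1 lower. At 48 h alone, edgeR called 0 members, where 0.144% of genes were called, and DESeq2 called 3 members and 223 of all genes. In edgeR 6 members were at an unadjusted p below 0.05, again not counted over all genes. The block called 6 against 2.84% of genes, EFNA5 (1.17 ± 0.10, adjusted p = 0.000231), SEMA6D (3.87 ± 0.66, 0.00977), SEMA4A (1.35 ± 0.27, 0.024) and EFNB3 (0.63 ± 0.13, 0.0299) higher in E6 and EPHA1 (-0.88 ± 0.11, 0.00181) and PLXNB3 (-0.80 ± 0.17, 0.0318) lower.

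E8 at 48 h against t0 asks what 48 h after single-cell seeding did without a change of medium. PLXNB3, a plexin found mainly in the nervous system, was the 1 member called (1.56 ± 0.23, adjusted p = 0.0456), where 0.139% of genes were called. It was at 1.89, 1.47 and 1.72 CPM at t0 and at 4.95, 4.71 and 4.95 in E8, with no overlap, and its call was lost without t0 replicate 2 or 3 or E8 replicate 2 or 3 (adjusted p up to 0.268). In GENCODE 20.4% of its exon bases are shared with SRPK3 on the same strand, so its counts are uncertain. With the block 19 members were called, all higher at 48 h, where 25.6% of genes were called and 12.6% were called higher. The 19 are EFNA1, EFNA3, EFNA4 and EFNB3, the receptors EPHA6, EPHA8, EPHA10, EPHB1 and EPHB3, 8 semaphorins, PLXNB2 and PLXNB3.

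Genes that act with these families were counted from lists of pathway genes. In the time course of BA against E6, 10 of 19 Eph and ephrin effectors were called, 6 higher and 4 lower, where 30.5% of all genes were called. The higher ones include KALRN (1.30 ± 0.14, adjusted p = 1.45e-05), SRC and ADAM10, a protease that sheds ephrins (0.56 ± 0.11, 0.0041), and the lower ones FYN and NGEF. FYN at 48 h was at 38.1 CPM in BA against 69 in E6 in replicate 1, but at 105 and 107 against 101 and 97.1 in replicates 2 and 3. NGEF was low in the fitted series, at 0.447 to 1.65 CPM in BA and 1.08 to 2.64 in E6. Of 25 semaphorin and plexin partners 13 were called, 4 higher and 9 lower. The collapsin response mediators CRMP1 (-0.57 ± 0.09), DPYSL2 (-0.82 ± 0.06), DPYSL3 (-2.17 ± 0.12) and DPYSL5 (-1.75 ± 0.23), which relay SEMA3A signals to the cytoskeleton, were lower. CHL1, an adhesion molecule that associates with NRP1, was higher (5.33 ± 0.49, adjusted p = 8.4e-09). Of the netrin, slit, RGM and FLRT families, 17 of 23 tested genes were called, 9 higher and 8 lower. At 48 h, with 3 replicates of each medium, SLIT2 was higher than in E6 and UNC5A, NTNG2 and RGMA were lower, 4 of 24 tested, where 3.52% of all genes were called, and of the partners CHL1 was higher and DPYSL3 lower.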

How the data were processed

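Poly(A) RNA of 35 libraries was sequenced after a Nucleospin extraction and an Illumina TruSeq mRNA preparation, per the labels' protocols. The deposited table holds whole read counts per gene symbol, not normalized; the submitters' processing notes name hg38, featureCounts and DESeq2 without versions, and the strand setting is not given in the sources used here. A deposited table of the authors' own tests was not used. Each of the 35 columns was mapped to its sample by title, and no per-sample column was left over.

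From these counts edgeR 4.0.16 (limma 3.58.1, R 4.3.3) computed TMM-scaled CPM, kept genes with filterByExpr (minimum count 10) and ran quasi-likelihood F-tests with Benjamini-Hochberg adjustment over all genes tested, calling an adjusted p below 0.05. One group model covered the 15 libraries of the 5 replicated groups (21554 genes). The time courses used 24 libraries, 1 for each hour and medium, with a natural spline of 3 degrees of freedom in each medium (18244 genes); the direction is the sign of the mean fitted difference over the 8 hours, or of 48 h minus 6 h for change within BA. There the p-value measures scatter around the curves. Positions and exon lengths are from GENCODE release 29 and promoters from RefSeq.

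The labels give replicate numbers but do not say that these pair the samples, so the main models hold no block. Deviations of same-numbered libraries from their group means correlated at r = 0.622 to 0.918 over 30 pairs. Numbers 2 and 3 also correlated with each other (0.593 to 0.792) and number 1 with either negatively (-0.871 to -0.654). The main split was thus number 1 against numbers 2 and 3. The blocked fit is printed where it changes a call or a count of members.

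Named members are, per comparison, up to 10 called members with the largest change (for time courses the smallest p), 6 ligand and receptor sets and the most abundant member of each family; others are given by counts or because the blocked fit called them. The families that define the members, and the lists, were chosen with earlier results of these data known. Alternatives were DESeq2 1.42.0, RLE size factors, no filter, only the libraries of the groups compared, the block, a term for replicate 1, leaving out each library, a spline of 2 degrees of freedom, and, chosen after seeing the data, replicates 2 and 3 only and the time courses without 5 libraries that stand apart. The models were tested on simulated counts without a gap between replicate 1 and replicates 2 and 3, so that test does not cover this feature of the data.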

Additional observations from a re-analysis of the deposited data

How the results depend on the processing

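Member calls in the replicated comparisons depend on how the gap between replicate 1 and replicates 2 and 3 is handled. In the order BA 24 h against t0, BA 48 h against BA 24 h, BA 48 h against E6 48 h, E6 48 h against E8 48 h and E8 48 h against t0, the 1, 1, 2, 0 and 1 calls became 13, 19, 15, 6 and 19 with the replicate block, 14, 20, 16, 7 and 19 with a term for replicate 1, and 28, 35, 32, 27 and 38 with replicates 2 and 3 only. Calls over all genes rose as well, from 339, 98, 759, 31 and 30 to 1929, 2158, 4760, 612 and 5510 with the block. They were 2207, 2659, 5175, 722 and 5971 with the term, and 4511, 7441, 7999, 4025 and 11190 with replicates 2 and 3 only. DESeq2 called 6, 4, 4, 3 and 8 members, and 818, 645, 1561, 223 and 1228 of all genes. Fitting only the libraries of the groups compared gave 0, 0, 1, 0 and 0 member calls, and no filter gave 0 for the first and last comparison and no change elsewhere. The counts over all genes were 114, 0, 76, 0 and 0 with only those libraries, and 236, 65, 573, 21 and 1 with no filter. Leaving out 1 library gave 0 to 0, 0 to 2, 0 to 4, 0 to 1 and 0 to 3 member calls. Over all genes it gave 84 to 206, 3 to 175, 257 to 670, 2 to 56 and 0 to 624. RLE size factors kept every count within 1.5 times.

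The 41 calls of BA against E6 over time were 34 to 42 in the other settings except 17 with all 32 libraries and no block, and 35 to 41 without 1 library. Over all genes, the 5561 calls became 2852 with all 32 libraries and no block, and 4368 to 6394 without 1 library. The 0 calls of E6 against E8 became 1 with DESeq2, 1 with all 32 libraries and no block, 3 with the replicate block and 6 without the 5 libraries that stand apart, and were 0 to 0 without 1 library. Over all genes, 11 calls became 123, 37, 204 and 334 in those settings in the same order, and 0 to 43 without 1 library. The 32 calls of change in BA were 23 to 38 without 1 library and 27 to 46 otherwise. Over all genes, the 4057 calls were 2860 to 5323 without 1 library and 2289 to 7644 otherwise. The block changed no other named call of the time courses than those given with the results.

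Among the named members, signs reversed in 6 cases: PLXND1 in BA 48 h against 24 h (0.62) and PLXNC1 in E8 48 h against t0 (0.51) with replicates 2 and 3 only; PLXNC1 in BA against E6 with all 32 libraries (0.03, and 0.04 with the replicate block); and, without BA at 48 h, the change in BA of SEMA4A (-0.28, up to 2.58 without another library) and EFNA1 (-1.07, up to 1.56). Outside them, the change in BA of SEMA4B went from -0.45 (adjusted p = 0.00148) to 0.03 (0.0211) with the replicate block. The cause was not tested. Depth limits the members under 1 CPM, such as EPHA5, EPHA6 and EPHA10.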

Other observations

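Some members lie close together in the genome (GENCODE, GRCh38), and their differences between BA and E6 are given side by side. EFNA4, EFNA3 and EFNA1 follow one another on chromosome 1, with gaps of 9.3 and 39.9 kb, and their fitted mean differences were 0.08 (not called), 0.51 and 2.66. SEMA3E, SEMA3A and SEMA3D follow one another on chromosome 7, with gaps of 306.7 and 502.8 kb, and their differences were 3.22, -0.28 and -0.71. SEMA3F and SEMA3B lie 78.5 kb apart on chromosome 3, with differences of 0.45 and -0.11 (not called). EPHA8 and EPHB2 lie 107.2 kb apart on chromosome 1, and both had a lower fitted mean in BA (-0.60 and -0.22), with calls that were lost in some fits without 1 library. EPHB2 was nevertheless above E6 at 4 of 8 hours, with 105 against 62.6 CPM at 48 h in replicate 1. EPHA8 was low, at 0.545 to 1.21 CPM in BA over the 8 hours. Chromosome 3 holds 11 members, chromosome 1 holds 10 and chromosome 7 holds 8. These are descriptions, and no test of position was made.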
